A study of Capra hircus with 72 samples.

Results

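Muscle of control goats was compared between the sets of libraries that the deposited tables mark 6D and 24H. The labels do not define these marks, which serve here only as names. The comparison covers 18 of the 72 RNA-seq libraries of the series, 9 in each set, and the 1407 genes listed in at least 1 table of each set, out of 6561 genes listed for muscle in either (5450 in the 24H tables and 2518 in the 6D tables). No measured difference between the sets entered this choice of genes. All goats were intact male Spanish goats (Capra hircus) aged 8 months with feed withheld the night before. The controls were held in pens, while the other goats travelled in a trailer for 30 or 180 min to test how transport stress bears on meat quality. The design text names 2 handling days, which no label ties to a library. In each set the libraries carry the numbers 1 to 9, and the labels do not say that a shared number is a shared goat. Number 9 is control by title and group tag in both sets, while 2 other label fields put it among goats transported for 180 min. No label gives an extraction or sequencing batch, so a batch difference between the sets cannot be told apart from the set.

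Skeletal muscle is made mostly of multinucleate fibres, with capillary endothelium, mural cells, resident macrophages, connective tissue and satellite cells between them. Glucocorticoids act in fibres through a nuclear receptor and induce genes of fuel switching and of protein breakdown by the ubiquitin-proteasome system. AMP-activated kinase senses a fall in cellular energy, and calcium released in the fibre drives both contraction and calcium-dependent signalling.

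The library totals implied by the FPKM values (fragments scaled to gene length and library total) ran from 11.8 to 16.2 M counts in the 24H set, with a median of 14.7 M, and from 9.45 to 16.1 M in the 6D set, with a median of 13 M. The 6D total was lower in 7 of 9 pairs (exact two-sided sign-flip permutation p = 0.125). The 1407 genes took a share of 4.25 to 5.36% of each total in the 24H set and 3.93 to 4.63% in the 6D set. This share was lower in 9 of 9 pairs (exact two-sided sign-flip p = 0.003906, the smallest this test can give with 9 pairs). Of the 15 skeletal muscle markers, 6 were listed in the 24H tables, where the control medians reached 15900 FPKM for CKM, the muscle creatine kinase, and 52100 FPKM for MYLPF, the fast myosin light chain. None of the 15 was listed in the 6D tables, so the tissue label was not checked in that set.

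Of the 1407 genes, 1321 had enough counts to be tested, and the 86 others had mean counts of at most 16.2. Among those tested, 12 had a median count under 10 in the 24H set alone and 11 in the 6D set alone. In the edgeR quasi-likelihood test with the shared number as a block, 896 genes differed at an adjusted p under 0.05 (67.8% of those tested). Of these, 375 were higher in the 6D set (28.4%) and 521 lower (39.4%). Without number 9, whose labels conflict, 860 of 1319 genes were called, 345 higher and 515 lower. Its absence left 10 of the 12 interferon genes below called higher and 9 of the 12 glucocorticoid genes called lower. A difference of at least 2-fold was reached by 103 of the higher and 148 of the lower genes. The direction was the same in 9 of 9 pairs for 204 higher and 268 lower genes. The 9 libraries of the 6D set lay wholly above those of the 24H set for 9 genes (0.681%) and wholly below them for 37 (2.8%).

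The balance of directions depended on the scaling. The median log2 difference (6D minus 24H) over all tested genes was -0.15 with the implied totals, and 41.9% of the calls were higher. With scaling estimated on these genes the median was -0.06 (TMM), -0.01 (DESeq2 size factors) and 0.03 (upper quartile), and 48.5, 52.5 and 55.5% of the calls were higher. All 375 higher calls were kept under each of these scalings. Of the 521 lower calls, 439, 397 and 361 were kept, and none became a higher call.

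**Figure D1:**
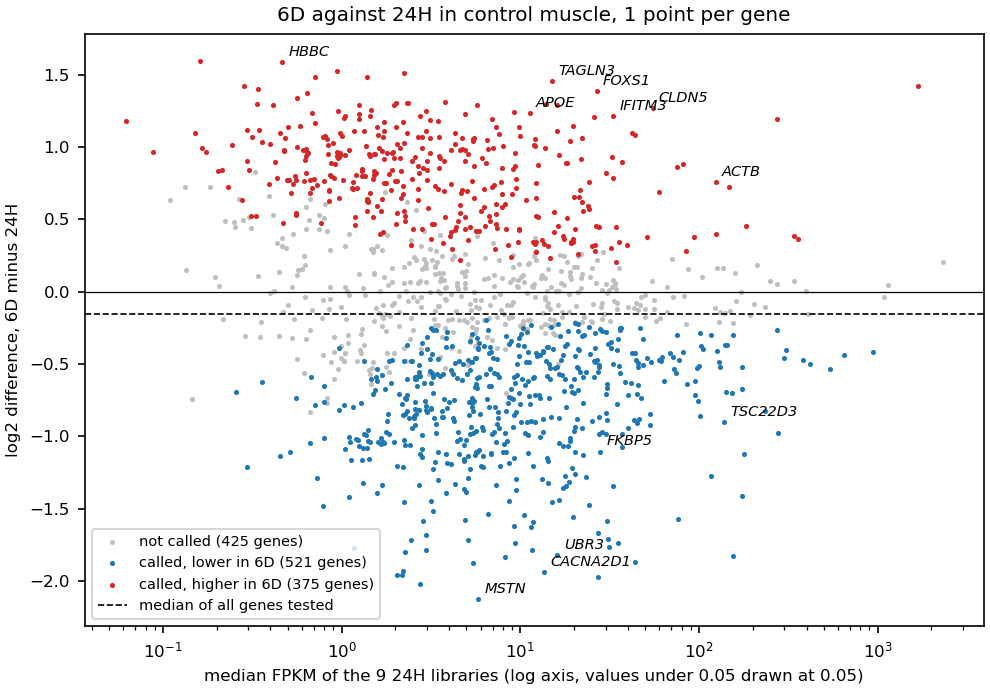
Each point is 1 of the 1321 tested genes, with its median FPKM in the 24H set on a log axis and its fitted log2 difference, 6D minus 24H. The 375 red genes were called higher, the 521 blue genes lower, and the dashed line is the median of all genes at -0.15.

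The blood vessel wall genes that could be tested were higher in the 6D set. Of the 33 endothelial and mural markers, 5 were listed in both sets, and all 5 were called higher, beside 28.4% of all tested genes higher and 67.8% called. Their median log2 difference was 1.06, beside -0.15 for all genes. CLDN5, the tight junction claudin of endothelium (ENSCHIG00000020205, listed on scaffold LWLT01000035.1 from 376079 to 376735), ran from 50.5 to 98.1 FPKM in the 24H set with a median of 55.0, and from 94.1 to 266 with a median of 171 in the 6D set. A single 6D library lay below the highest 24H library. The log2 difference was 1.27 ± 0.12 (SE, n = 9 pairs, edgeR adjusted p = 9.75e-06), and it was higher in 9 of 9 pairs. TIE1, an endothelial receptor of the angiopoietin system, had medians of 5.50 and 13.9 FPKM and a difference of 1.06 ± 0.13. APLNR, the apelin receptor, had medians of 3.51 and 7.96 FPKM and a difference of 1.07 ± 0.19. ROBO4, an endothelial guidance receptor, rose by 0.98 ± 0.13, and NOTCH3, the Notch receptor of mural cells, by 0.91 ± 0.14. All 5 stayed called under each alternative fit of the whole gene table. The summed level of these 5 genes was 65.0 to 129.9 FPKM in the 24H set (median 68.3) and 122.5 to 343.3 in the 6D set (median 208.9). In bulk tissue, more cells of a type and more RNA per cell cannot be told apart. The other 28 markers of the list, VWF, CDH5 and KDR among them, were not analysed here in both sets.

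Of the 24 myeloid markers 3 were in both sets, and 2 were called higher. The share called, 66.7%, was near the 67.8% of all tested genes, of which 28.4% were higher. LAPTM5, a lysosomal membrane protein of blood cells, ran from 5.92 to 22.3 FPKM (median 11.9) in the 24H set and from 14.7 to 51.5 (median 23) in the 6D set. The groups overlapped, yet LAPTM5 was higher in 9 of 9 pairs, by 1.01 ± 0.15 on the log2 scale (edgeR adjusted p = 8.44e-05). CD68, a lysosomal glycoprotein of macrophages, rose by 0.82 ± 0.27. CD163, the haemoglobin scavenger receptor, had medians of 0.302 and 0.463 FPKM and did not pass the test (adjusted p = 0.155). HBBC, a beta globin gene and the single marker of red cells in both sets, had medians of 0.465 and 1.48 FPKM and a difference of 1.59 ± 0.39, which was not called without the block (adjusted p = 0.0717). No lymphocyte, fibroblast or Schwann cell marker was listed in both sets.

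Most interferon-induced genes that could be tested were higher in the 6D set. Of the 12 listed in both sets, 11 were called higher and none lower (91.7%, beside 28.4% of all tested genes higher and 67.8% called), with a median log2 difference of 1.01. IFITM3, a membrane protein that blocks viral entry (ENSCHIG00000007736, chromosome 29, 46058018 to 46058896), ran from 12.6 to 41.1 FPKM (median 33.1) in the 24H set and from 23.3 to 170 (median 63.6) in the 6D set. The groups overlapped, and every pair was higher in the 6D set. The difference was 1.21 ± 0.15 (edgeR adjusted p = 3.61e-05). IRF1, a transcription factor induced by interferon gamma, had medians of 7.35 and 16.1 FPKM and a difference of 1.13 ± 0.14. PSMB9, a catalytic subunit of the immunoproteasome, had medians of 22.2 and 39.4 FPKM and a difference of 1.06 ± 0.13. TAP1, the peptide transporter of antigen presentation, rose by 0.85 ± 0.12. The antiviral effectors MX1 and SAMD9 rose by 1.07 ± 0.17 and 1.34 ± 0.17, and UBA7, the activating enzyme of the ubiquitin-like ISG15, by 1.17 ± 0.16. IFI44L, IFIT1, IRF7 and LGALS3BP rose by 0.96, 0.84, 0.77 and 0.34. Of these, IFIT1, IRF7 and LGALS3BP were not higher in every pair. DTX3L did not pass the test (0.17 ± 0.13). The count was 9 of 12 without number 5, without number 8 and without the block. The endothelial and myeloid markers above moved in the same direction, and their part in this difference was not tested.

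Outside these lists, the genes with the largest rises had varied roles. BOK, a pro-apoptotic member of the BCL2 family, ran from 1.54 to 5.8 FPKM (median 2.23) in the 24H set and from 3.42 to 13.2 (median 6.91) in the 6D set, a difference of 1.51 ± 0.25. TAGLN3, an actin-binding transgelin (chromosome 1, 56530051 to 56543588), ran from 11.7 to 26.7 FPKM (median 15) and from 31.2 to 60.7 (median 41.6), so that the groups did not overlap. Its difference was 1.45 ± 0.19 (edgeR adjusted p = 4.73e-05). FOXS1, a forkhead factor known from mural cells, rose by 1.38 ± 0.18, from a median of 26.8 to 66.7 FPKM. PLK2, a polo-like kinase, rose by 1.30 ± 0.16. IDO1, an interferon-induced enzyme of tryptophan breakdown, had medians of 1.97 and 4.51 FPKM and ranged from 0.196 to 14.4 FPKM within the 24H set alone. Its rise of 1.29 ± 0.18 rested on the pairing, with an adjusted p of 0.109 without the block. HID1, FAM107A, EVA1B, GMFG and NRROS, which with SAMD9 and CLDN5 above complete the 12, rose by 1.25 to 1.31.

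**Figure D2:**
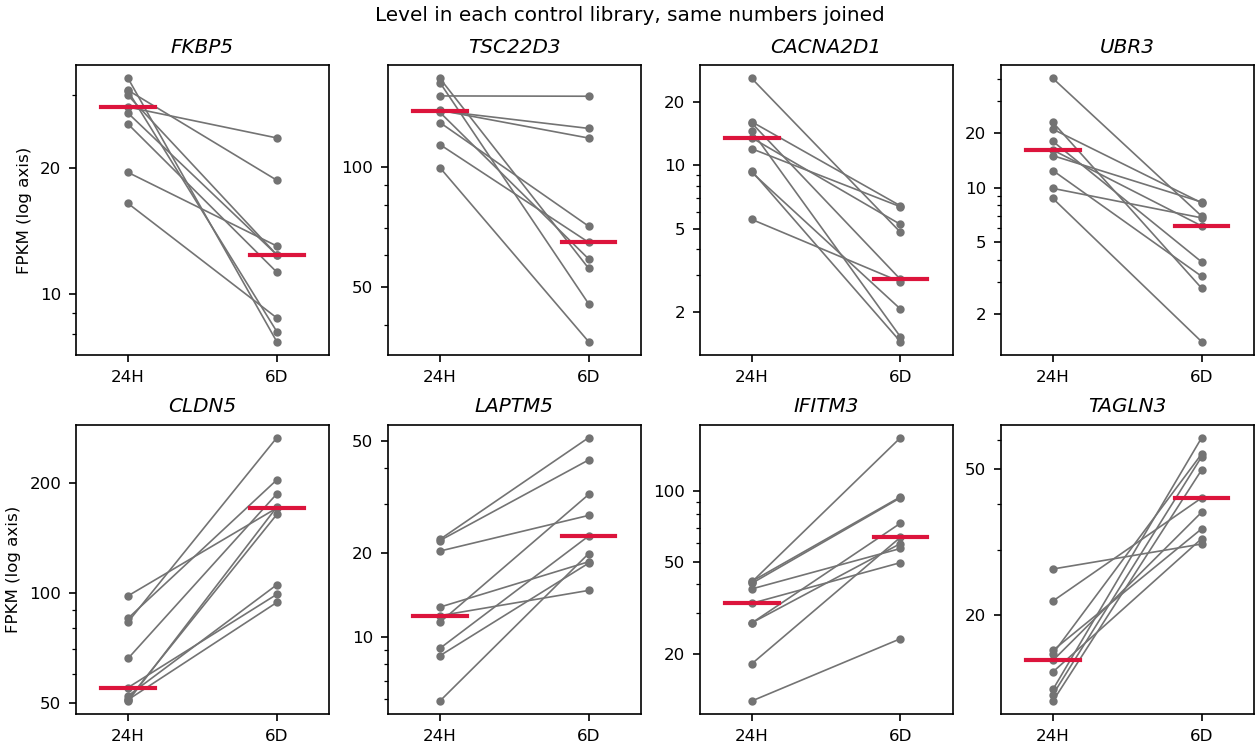
Each panel plots the FPKM of 1 gene on a log axis in the 9 24H and the 9 6D control libraries, with lines joining equal numbers and red bars at the medians. FKBP5, TSC22D3, CACNA2D1 and UBR3 were lower and CLDN5, LAPTM5, IFITM3 and TAGLN3 higher in the 6D library of 9 of 9 pairs.

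Several genes of the glucocorticoid response were lower in the 6D set. Of the 12 listed in both sets, 9 were called lower and none higher, with a median log2 difference of -0.81. GLUL, MSTN and PIK3R1 were among those called lower. MSTN counts again with the muscle growth genes below, and PIK3R1 with the autophagy and FOXO genes. The share called, 75%, was near the 67.8% of all tested genes, of which 39.4% were lower. FKBP5, the receptor co-chaperone that glucocorticoids induce (ENSCHIG00000014746, chromosome 23, 39071133 to 39140144), ran from 16.5 to 32.9 FPKM (median 28.1) in the 24H set and from 7.67 to 23.7 (median 12.4) in the 6D set. The groups overlapped, and every pair was lower in the 6D set. The difference was -1.11 ± 0.17 (edgeR adjusted p = 0.000122). TSC22D3, the glucocorticoid-induced leucine zipper protein GILZ, had medians of 138 and 64.6 FPKM and fell by 0.90 ± 0.18 on the log2 scale. NR3C1, the glucocorticoid receptor itself, had medians of 5.13 and 3.39 FPKM and a difference of -1.13 ± 0.27. ZBTB16 and KLF9, transcription factors induced by glucocorticoids, had differences of -0.72 ± 0.19 and -0.60 ± 0.23, and that of KLF9 was not called without the block (adjusted p = 0.109). IL6R, the interleukin 6 receptor, had a difference of -1.68 ± 0.29. KLF15, LIPG and CD163 did not pass the test. The count was 7 of 12 with upper quartile scaling and without the block.

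The direction of FKBP5 between the sets was opposite to that listed for transport, which was not particular to this gene. In the authors' deposited table for 30 min, FKBP5 had a log2 fold change of 1.55 against these controls in the 24H set and 1.59 in the 6D set. The authors' deposited table for 180 min gave 2.50 and 2.05. For 30 min, CACNA2D1, PDK4 and MSTN, lower in the 6D set, were likewise listed as rising with transport in both sets. CLDN5 and IFITM3, higher in the 6D set, were listed as falling. Other genes had the same direction in both comparisons, such as FAM107A, higher and listed as rising, and LMOD3, lower and listed as falling at 180 min. All these transport comparisons share their control libraries with the present one.

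Muscle growth genes moved in both directions. All 7 listed in both sets were called, 4 lower and 3 higher. MSTN, which encodes the growth inhibitor myostatin (ENSCHIG00000022964, chromosome 2, 130227820 to 130232802), ran from 3.99 to 10.1 FPKM (median 5.81) in the 24H set and from 0 to 3.55 (median 1.97) in the 6D set. The groups did not overlap. Its difference was -2.12 ± 0.47 (edgeR adjusted p = 0.00132). SIX4, a homeobox factor of myogenesis, also had groups that did not overlap, with medians of 2.04 and 0.518 FPKM and a difference of -1.96 ± 0.26. MEF2A, a myocyte enhancer factor, had a difference of -1.39 ± 0.24, and MYF6, the myogenic factor of mature fibres, one of -0.52 ± 0.13. The 3 higher genes were IGFBP4, a binding protein of insulin-like growth factors, at 1.15 ± 0.16, NOTCH3, which the mural cell markers also hold, at 0.91 ± 0.14, and CHRNE, the adult subunit of the acetylcholine receptor, at 0.52 ± 0.15. Without the block CHRNE and MYF6 were not called (adjusted p = 0.133 and 0.0574).

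Of the 49 genes in the list of calcium handling and ion channels, 4 were listed in both sets. All 4 were called lower, beside 39.4% of all tested genes lower and 67.8% called, with a median of -1.66. CACNA2D1, the alpha-2/delta subunit of voltage-gated calcium channels (ENSCHIG00000023258, chromosome 4, 81667402 to 82200896), ran from 5.53 to 25.9 FPKM (median 13.5) in the 24H set and from 1.45 to 6.42 (median 2.87) in the 6D set. It was lower in 9 of 9 pairs, by -1.94 ± 0.23 (edgeR adjusted p = 3.45e-05). PPP3CA, the catalytic subunit of calcineurin, had medians of 35.3 and 12.8 FPKM and a difference of -1.74 ± 0.23. CAMK2D, a calcium/calmodulin-dependent kinase, had medians of 30.6 and 11.6 FPKM and a difference of -1.58 ± 0.23, with no overlap of the groups. ATP2B1, a calcium pump of the plasma membrane, fell by 1.30 ± 0.19 on the log2 scale.

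In the list of proteasome subunits and atrophy ligases, the genes called were lower. Of the 11 in this list, 7 were called lower and none higher, with a median of -0.41, and 4 were called lower with upper quartile scaling. The immunoproteasome subunit PSMB9, counted with the interferon genes above, was called higher, at 1.06. PSME4, a proteasome activator, had medians of 7.36 and 3.79 FPKM and a difference of -1.34 ± 0.21. TRIM63, the muscle ubiquitin ligase MuRF1, ranged from 49.5 to 304 FPKM in the 24H set and from 23.3 to 276 in the 6D set, and was lower in 9 of 9 pairs by -0.62 ± 0.13. Its call was lost without the block (adjusted p = 0.395). The subunits PSMB1, PSMB7 and PSMD8 did not pass the test, while PSMB2 and PSMA5 were called lower, at -0.47 and -0.41. The share called in this list, 63.6%, was near the 67.8% of all tested genes.

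Of 7 autophagy and FOXO genes 6 were called lower (85.7%, beside 39.4% of all tested genes lower and 67.8% called), with a median of -0.87. ATG4A, the protease that processes ATG8 proteins, had medians of 15.1 and 6.16 FPKM in groups that did not overlap, and a difference of -1.46 ± 0.21 (edgeR adjusted p = 7.36e-05). RICTOR, a subunit of mTOR complex 2, and PIK3R1, the regulatory subunit of PI3 kinase, had differences of -1.05 ± 0.23 and -1.01 ± 0.18. The differences of the transcription factors FOXO3 and FOXO1 were -0.87 ± 0.30 and -0.30 ± 0.11. Without number 8, 3 of the 7 were called, and 4 were called without number 2 or with DESeq2 or upper quartile scaling, shares below the 67.8% of all tested genes.

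In the glycolysis, fatty acid and glycogen lists, the genes called were lower. The glycolysis list held 30 symbols, of which 2 were tested, PDK4 and PDP1, both regulators of pyruvate dehydrogenase. Outside these lists, SLC27A3, SLC27A4 and SLC27A5, of the same SLC27 family as the listed fatty acid gene SLC27A1, were called higher. Their differences were 0.94, 0.51 and 0.96, beside -0.37 for SLC27A1, which was called lower. PDK4, the kinase that shuts off pyruvate dehydrogenase, ran from 70.0 to 615 FPKM (median 178) in the 24H set and from 31.4 to 281 (median 80.2) in the 6D set. The groups overlapped widely, but every pair was lower, by -1.12 ± 0.12 (edgeR adjusted p = 1.61e-05). PDP1, the opposing phosphatase, had a difference of -1.21 ± 0.24. ACADL, the long-chain acyl-CoA dehydrogenase, had medians of 19.6 and 6.74 FPKM and a difference of -1.56 ± 0.22. LPL, lipoprotein lipase and the single adipocyte marker in both sets, had one of -0.98 ± 0.22. Of the 6 fatty acid genes 3 were called, all lower, and ACACB, PLIN5 and PPARD did not pass. The share called, 50%, was below the 67.8% of all tested genes, of which 39.4% were lower. With TMM, DESeq2 or upper quartile scaling, or without the block, 2 were called lower. Of the 3 glycogen genes 2 were called lower, STBD1, a glycogen-binding protein, at -0.92 ± 0.13 and PPP1R3D at -0.82, and GSK3A did not pass. With DESeq2 or upper quartile scaling, without number 2, or without numbers 6 and 9, 1 was called lower.

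**Figure D3:**
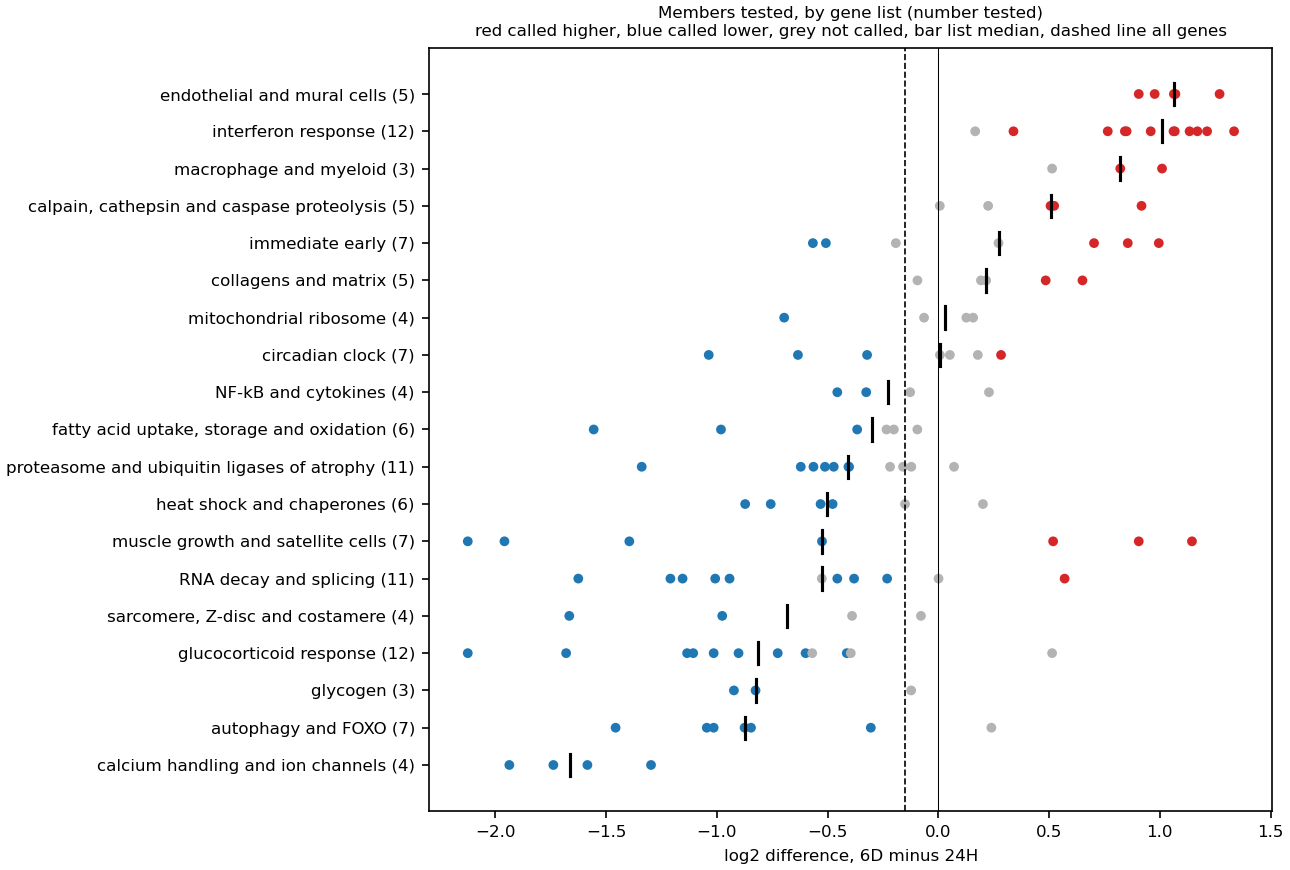
Each point is a tested gene at its log2 difference, 6D minus 24H, by gene list, with the number tested in brackets. Endothelial, interferon and myeloid genes have medians of 0.82 or more. The calcium handling, autophagy and FOXO, glycogen and glucocorticoid lists have medians of -0.81 or less, beside -0.15 for all genes (dashed).

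Of 11 RNA decay and splicing genes 8 were called lower and 1 higher (81.8% called, beside 67.8% of all tested genes), with a median of -0.53. With TMM, DESeq2 or upper quartile scaling 6 were called lower and 1 higher. MBNL1, a splicing regulator of muscle, had medians of 11.5 and 5.87 FPKM and a difference of -1.63 ± 0.27. SMG1, the kinase of nonsense-mediated decay, XRN1, the 5′ to 3′ exonuclease, and CNOT7, a deadenylase subunit, had differences of -1.21 ± 0.21, -1.15 ± 0.29 and -0.94 ± 0.18. RNASE4, a secreted ribonuclease, was the gene called higher, at 0.57 ± 0.14. EXOSC10, a subunit of the nuclear exosome, had a difference of 0.00 ± 0.09 and did not pass.

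In the chaperone, matrix and sarcomere lists 66.7, 40 and 50% of the tested genes were called, beside 67.8% of all tested genes. Of 6 heat shock genes 4 were called lower, with DNAJB9 at -0.87 ± 0.19, BAG2 at -0.76 ± 0.12 and CCT2 at -0.53 ± 0.09, while the small heat shock protein gene HSPB1 did not pass. Of 5 matrix genes 2 were called higher, SERPINH1, the collagen chaperone, at 0.65 ± 0.11 and LAMA4, a laminin chain of vessel walls, at 0.49 ± 0.16, and 4 were called with upper quartile scaling. TIMP1, the inhibitor of matrix metalloproteases, had medians of 22 and 45.5 FPKM and a rise of 0.92 ± 0.16. In the sarcomere and costamere list 2 of 4 were called, both lower, namely SGCB, beta-sarcoglycan, at -1.67 ± 0.21 and LMOD3, the actin nucleator leiomodin, at -0.98 ± 0.15. MYH7B, a slow-type myosin heavy chain, rose by 1.11 ± 0.16.

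Clock and immediate early genes gave mixed calls. Of 7 clock genes, RORA, BHLHE41 and CRY1 were called lower and NR1D1 higher, and RORA alone was called without the block, at -1.04 ± 0.14. Of 7 immediate early genes, DUSP2, EGR1 and FOSB were called higher and FOSL2 and IER3 lower. EGR1 ran from 1.95 to 40.3 FPKM in the 24H set and from 4.86 to 50.4 in the 6D set. None of the 3 was called higher without number 3, without number 9 or without the block. Of 4 NF-kB and cytokine genes, IL6ST and CISH were called lower, and neither was with TMM, DESeq2 or upper quartile scaling.

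The 12 largest falls held several signalling and ubiquitin genes. After MSTN the largest was RRM2B, a ribonucleotide reductase subunit, at -2.02 ± 0.40. PRKAA2, the alpha-2 catalytic subunit of AMP-activated kinase, ran from 0.513 to 5.06 FPKM (median 2.18) in the 24H set and from 0.263 to 0.879 (median 0.470) in the 6D set, a difference of -1.96 ± 0.25 (edgeR adjusted p = 3.61e-05). PRKAB2, its beta-2 subunit, had a difference of -1.78 ± 0.41. UBR3, a ubiquitin ligase, had medians of 16.1 and 6.15 FPKM in groups that did not overlap, and a difference of -1.82 ± 0.23. USP13, a deubiquitinase, had one of -1.83 ± 0.27. MITF, NRIP1 and XK, with CACNA2D1 and SIX4 above, were also among the 12, which all fell by at least 1.78.

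**Figure D4:**
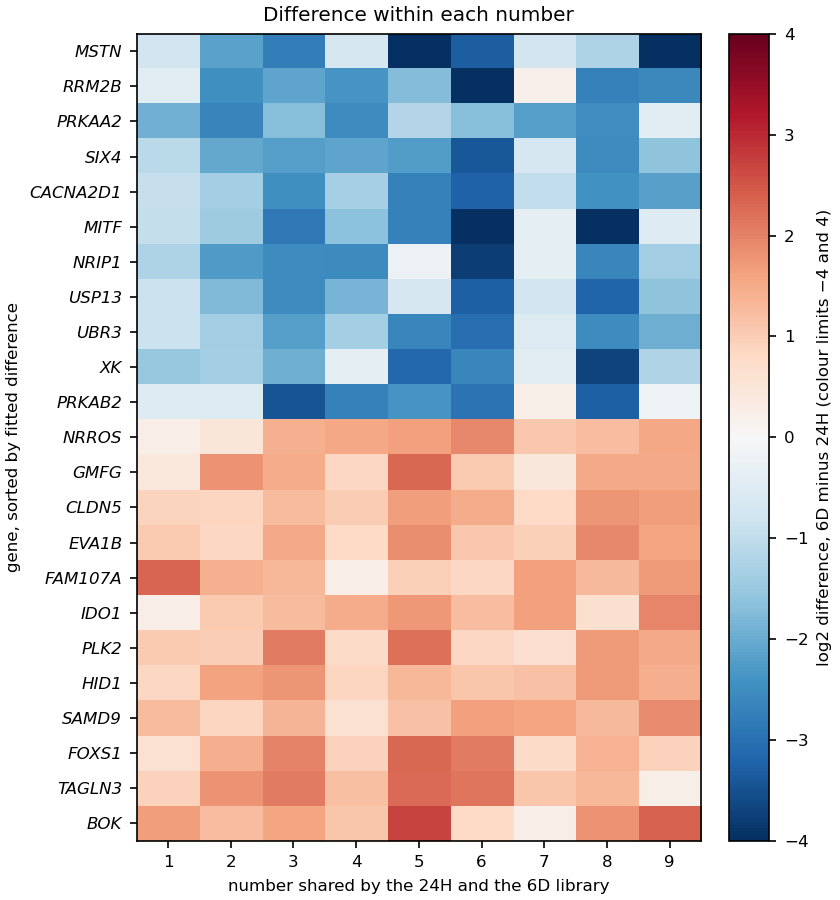
Rows are 11 of the 12 genes with the largest falls and the 12 with the largest rises, columns the numbers 1 to 9, and colour the log2 difference, 6D minus 24H, within each number. MSTN, SIX4, CACNA2D1 and UBR3 are lower and TAGLN3, CLDN5 and FOXS1 higher in every column.

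The size of the difference varied between pairs. Over the genes called higher, the median within a pair ran from 0.37 in number 4 to 1.31 in number 5. Over the genes called lower it ran from -0.28 in number 7 to -1.37 in number 6. In number 7, 74.9% of the genes called lower were lower, against 86.2 to 98.5% in the other pairs. Median gene length was 2305 bases for the higher and 2341 for the lower genes. Higher genes had a median of 2.84 FPKM in the 24H set and lower genes one of 8.24.

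The set difference was also measured in transported goats. After 30 min of transport, 616 genes listed in both tables of that time were tested, and 177 were higher (28.7%) and 314 lower (51.0%) in the 6D set (79.7% called). With TMM scaling the counts were 239 and 240. After 180 min, 655 were tested, with 155 higher (23.7%) and 178 lower (27.2%) (50.8% called), or 91 and 81 without the block. FKBP5 differed by -1.08 in the 30 min and -1.21 in the 180 min libraries, beside -1.11 in controls. CLDN5 differed by 1.52 in the 30 min libraries, beside 1.27 in controls.

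These transported values are not an independent check on the control values, although no library is shared. A gene entered only if transport and control differed at p under 0.05 in both sets, and the authors' deposited table gave both differences the same direction for 645 of 647 genes at 30 min and 709 of 709 at 180 min. The difference between the transported and the control set difference equals the difference between those same 2 transport contrasts, so the listing limits its size. The edgeR term for it was called for 0 of 607 genes at 30 min and 0 of 641 at 180 min. At an unadjusted p under 0.05 it held 6 genes each time, 0.988 and 0.936% of those tested, below the 5% that this threshold gives where genes are not selected. No likeness between transported and control muscle is read from it.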

How the data were processed

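Per the labels' protocols, a Qiagen fibrous tissue kit was used for muscle RNA and an NEB kit for the libraries. No source used here gives the aligner, counting tool, strand setting or genome build. Coordinates are those the deposited tables list. Genes with near-identical copies or antisense partners carry uncertain counts. The authors deposited whole-number counts and FPKM per gene, per the file headers. They also deposited normalized counts, a signal equal to the count over 1 size factor per library, which was not tested here. The log2 fold change, p-value and adjusted p-value of each transport comparison are the authors' own in the deposited tables, which list only genes with p under 0.05. Control libraries entered that listing.

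The library total was computed as count over FPKM and gene length and was 1 value per library. The main test was the edgeR quasi-likelihood test (edgeR 4.0.16, R 4.3.3) with these totals, the number as a block, a low-count filter (minimum count 10) and Benjamini-Hochberg adjustment over all 1321 genes at 0.05. The deviations of same-numbered libraries from their set means had a correlation of 0.14 to 0.74 (median 0.47). This was above 0.1 for each number, and the numbers were taken as pairs. Libraries of different numbers also correlated, by up to 0.51. The own number was the best match for 6 of the 9 24H libraries and 7 of the 9 6D libraries. The check therefore does not establish the pairing for every number. The labels do not state this pairing, and numbers 6 and 9 correlated best with each other across the sets. Nothing in the labels says that libraries came from separate goats, so p-values measure the spread between these libraries. On simulated data, 1329 genes were tested, with 100 genes changed by 1 on the log2 scale and 100 by 0.5. Of these changes 92% and 43% were recovered, and 5.59% of calls were false. The simulated numbers had no differences between them, the totals were known exactly, and far fewer genes changed than were called in the real data. These rates therefore check the fit under those settings and do not give the false share among the real calls.

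The transported comparison was designed as a check in separate libraries. It is given as values alone, because the way genes were listed constrains it. Alternatives were no block, TMM, DESeq2 1.42.0 and upper quartile scaling, the DESeq2 test, limma 3.58.1 on log2 of FPKM plus 0.1 or 1, other filters and leaving out numbers. The genes, lists and tests were chosen with earlier results of these data known. Genes named are the 12 largest rises and falls with the same sign in at least 8 of 9 pairs and a mean of at least 50 counts, up to 3 per list by p, and markers; others were chosen after their values were seen. Some results are not reported here.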

Additional observations from a re-analysis of the deposited data

Results flagged for a closer look

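Among 81 groups of 9 values examined, 3 held a pair far from the other 8, where chance flags about 1 in 20 groups. PSME3, a proteasome activator subunit, had a log2 difference of -1.46 in number 5, while the other pairs ran from -0.74 to -0.18. PPP1R3D, a glycogen-targeting subunit of protein phosphatase 1, was higher in the 6D library by 2.11 in number 7, while the other pairs ran from -1.92 to -0.33. SLC27A1, a fatty acid transporter, had a difference of -1.41 in number 6, while the other pairs ran from -0.55 to 0.20. The causes were not tested.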

How the results depend on the processing

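The count of 896 genes ran from 785 (without number 8) to 886 (without number 7) when each number was left out, with 326 to 378 higher and 450 to 528 lower. It was 730 without the replicate block (283 higher, 447 lower), 921 with the DESeq2 test, 900 and 895 with limma, 906 of 1407 without a filter and 745 of 1062 at a mean of at least 50 counts. Restricted to the 71 genes with an adjusted p under 0.05 in the authors' deposited tables of each set, 42 were called, 20 higher and 22 lower. Without the block, 91 higher and 81 lower genes were called after 180 min of transport. Without numbers 6 and 9, or 7 and 9, both chosen after seeing the data, 818 (345 higher, 473 lower) and 875 were called. HBBC did not pass the count filter in either. Of 77 named genes 16 changed their call under some alternative, and 149 of the 896 genes lost it without at least 1 number. GSK3A, not called, turned from -0.12 to 0.023 with DESeq2 size factors and 0.054 with upper quartile scaling. The causes were not tested. Depth limits the genes with low counts: 86 were not tested.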

Other observations

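Families grouped by the start of the gene symbol, chosen after the values were seen, gave further counts, to be read beside 67.8% of all tested genes called, 39.4% lower and 28.4% higher. The 3 AMP-activated kinase genes examined, PRKAA1, PRKAA2 and PRKAB2, are part of its subunits and were called lower. PRKAA1 had a difference of -0.97 ± 0.16. All 5 mitochondrial carriers of the SLC25 family were called lower, from -1.22 for SLC25A46 to -0.50 for SLC25A25. Of 28 solute carriers tested, 15 were lower and 8 higher, and 8 and 5 without the block. SLC7A2, a cationic amino acid transporter, had the largest fall of these, at -1.77 ± 0.32.

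Of 27 ubiquitin ligases and deubiquitinases 16 were called lower and none higher, a share of 59.3% beside 67.8% of all tested genes. CUL5, a cullin scaffold, had medians of 9.22 and 3.70 FPKM and a difference of -1.62 ± 0.21. Of 9 phosphatase genes 6 were lower and 1 higher (77.8% called). PPP1CB, a catalytic subunit of protein phosphatase 1, had medians of 76.5 and 27.4 FPKM in groups that did not overlap, and a difference of -1.57 ± 0.20. Of 16 zinc finger genes 5 were higher, 2 lower and 9 not called. All 6 Rab genes and regulators were called lower, and 3 with upper quartile scaling.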
